A study of Mus musculus with 2 samples.

Results

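The circadian clock and PAR bZIP genes described here are Clock, Per1, Per2, Per3, Cry1, Ciart, Nr1d1, Nr1d2, Nfil3 and Dbp, 10 genes listed by name and followed through probe sets that the platform's annotation gives to a single gene. All 10 were on the array, through 11 probe sets, and all 10 lay above the detection floor, among 13554 measured genes of 19938 named genes. The cells were differentiated C2C12, mouse myoblasts that form multinucleated myotubes once serum is withdrawn, kept for 7 days in medium with 2% horse serum. Cultures then received 1 of 2 adenoviral vectors at a multiplicity of infection of 30 for 48 h: Ad-caERα, which carries a constitutively active estrogen receptor α, or Ad-DsRed, which carries the red fluorescent protein DsRed and is the control. Each vector was profiled on 1 array, from total RNA of whole cultures taken at 1 time point, so no difference below has a replicate check and no test between the vectors was possible. The labels name neither the promoter that drives the receptor, nor its species or mutation, nor a step that sets the phase of the clock, and 1 field of the labels gives the receptor's Greek letter as sigma.

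The mammalian clock is a transcriptional feedback loop. CLOCK pairs with BMAL1 (gene Arntl) and activates genes with E-box sequences in their regulatory DNA, among them the Per and Cry genes, whose proteins then inhibit CLOCK and BMAL1. A second loop runs through the nuclear receptors REV-ERBα and REV-ERBβ (genes Nr1d1 and Nr1d2), which repress Arntl and other genes through response elements shared with the ROR activators. The output factors DBP, TEF and HLF, the PAR bZIP family, activate genes through D-box sequences, and NFIL3 (also called E4BP4) represses through the same sequences. In skeletal muscle the clock is known to act on metabolic genes and on the myogenic factor gene Myod1.

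The promoters shown here are the 250 bases before the annotated transcription start of 5 members. These promoters were shown because they hold letter matches to the motifs searched, and because their genes differ in how far apart the arrays lay. Sequences are from RefSeq, build GRCm38.p6, read 5′ to 3′ along the gene. Capitals mark matches to the E-box CACGTG, the related E-prime box CACGTT, the D-box TTATGTAA and the nuclear receptor half-site AGGTCA, each searched on both strands.
Ciart, chr3:95882229-95882478, minus strand: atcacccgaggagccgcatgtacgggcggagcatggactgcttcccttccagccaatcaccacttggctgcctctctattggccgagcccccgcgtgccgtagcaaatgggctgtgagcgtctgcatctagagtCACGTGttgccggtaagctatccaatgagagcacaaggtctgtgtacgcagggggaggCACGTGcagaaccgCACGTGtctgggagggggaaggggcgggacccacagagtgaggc
Cry1, chr10:85185055-85185304, minus strand: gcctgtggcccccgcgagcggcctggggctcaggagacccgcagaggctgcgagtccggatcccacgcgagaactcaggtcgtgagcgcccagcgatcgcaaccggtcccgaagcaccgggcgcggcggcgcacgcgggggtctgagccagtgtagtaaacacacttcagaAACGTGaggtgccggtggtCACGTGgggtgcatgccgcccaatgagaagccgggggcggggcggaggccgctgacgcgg
Per1, chr11:69098699-69098948, plus strand: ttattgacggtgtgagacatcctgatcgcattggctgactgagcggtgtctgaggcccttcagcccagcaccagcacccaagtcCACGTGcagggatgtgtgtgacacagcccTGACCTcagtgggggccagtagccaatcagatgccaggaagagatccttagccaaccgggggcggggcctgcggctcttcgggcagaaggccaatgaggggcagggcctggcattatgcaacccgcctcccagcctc
Nfil3, chr13:52981040-52981289, minus strand: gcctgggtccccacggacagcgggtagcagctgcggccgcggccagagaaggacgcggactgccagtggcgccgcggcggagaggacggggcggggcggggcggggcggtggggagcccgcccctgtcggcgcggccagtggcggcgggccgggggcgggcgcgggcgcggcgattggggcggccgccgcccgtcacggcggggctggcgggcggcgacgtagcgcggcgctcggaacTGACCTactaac
Per3, chr4:151044666-151044915, minus strand: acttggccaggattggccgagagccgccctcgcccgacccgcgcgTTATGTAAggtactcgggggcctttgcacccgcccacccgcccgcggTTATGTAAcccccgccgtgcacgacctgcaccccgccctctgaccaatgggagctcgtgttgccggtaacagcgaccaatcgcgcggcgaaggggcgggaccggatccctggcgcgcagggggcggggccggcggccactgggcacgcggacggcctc
The Ciart promoter holds 3 E-boxes, the Cry1 promoter 1 E-box and 1 CACGTT element, and this Per1 promoter 1 E-box and 1 half-site. The Nfil3 promoter has the half-site on the opposite strand just before the start, and the Per3 promoter has 2 D-boxes. A window 250 bases before to 50 after the start was available for 9 of the 10 members (12 windows). Per2 had no window, so its promoter was not searched. Shares are given per gene, over the 10728 measured genes with a window, and E-boxes were found for 3 of these 9 members and for 11.3% of such genes. Per window the share was 7.15% of all 32851 windows, measured or not. The CACGTT element was found for 2 members, Cry1 and Nr1d1, and for 6.23% of measured genes (4.68% of all windows). The TTATGTAA form of the D-box was found for 1 member, Per3, beside 0.643% of measured genes (0.938% of all windows), and the TTACGTAA form for 0 members beside 0.196% (0.119%). The half-site was found for 4 members, Per1, Clock, Nr1d2 and Nfil3, and for 15.1% of measured genes (16.3% of all windows). It contains GGTCA, an arm of the estrogen response element as searched here (GGTCA and TGACC set 3 bases apart). That element and the cAMP response element TGACGTCA were each found for 0 members. Their shares were 0.0280% and 3.45% of measured genes (0.0700% and 1.79% of all windows). A match describes the letters of these windows only and says nothing of binding in these cells.

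**Figure D1:**
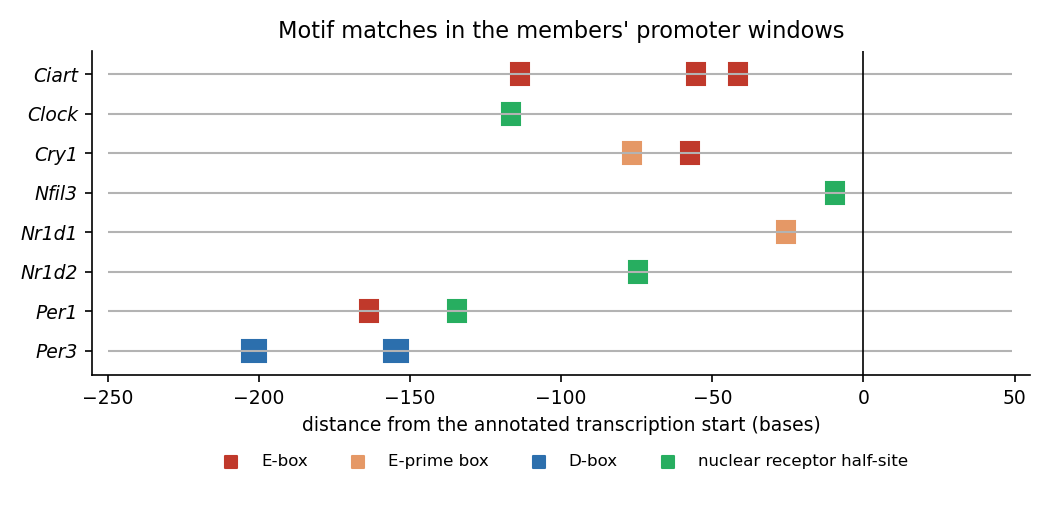
Positions of motif matches in the promoter windows of the 8 members that had a match, 1 matching window each, by distance in bases from the annotated transcription start (0), with upstream to the left. The 3 E-boxes of Ciart lie within 120 bases of the start, and the 2 D-boxes of Per3 lie farther upstream.

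Values are log2 signals per probe set, and a difference is always Ad-caERα minus Ad-DsRed. The detection floor was a log2 signal of 5.11, the 95th percentile of 1210 probe sets for odorant and vomeronasal receptors. Most of these were assumed, without a test, to be silent in muscle cells. The median difference of the 13554 measured genes was 0.0017 with an SD of 0.27. Over 770 genes with several probe sets, the differences of single probe sets scattered around their gene's mean with a pooled SD of 0.13. Probe sets of a gene share the same 2 arrays, so this SD holds no variation between cultures. Spread was wider for dim genes, at an SD of 0.30 below a mean log2 signal of 7, 0.27 from 7 to 9 and 0.21 above 9. Esr1, the gene of the introduced receptor, was 2.08-fold higher in the Ad-caERα array (8.44 against 7.38). All 13 muscle markers examined were measured, with a median difference of -0.050. Of these, 3 were above 0 and 10 below, beside 50.2% of all measured genes above 0. Myh4 (-0.48) and Ttn (-0.42) were the lowest and Des (0.22) the highest. Of 7 leukocyte markers 2 were measured (Cd68 and, near the floor, Cd3e), of 6 endothelial markers 1 (Tek) and of 5 adipocyte markers 2 (Plin1 and Cidec, near the floor), while Ptprc, Csf1r, Adgre1, Lyz2, Itgam, Pecam1, Cdh5, Adipoq and Fabp4 were below it on each array. All 7 fibroblast and smooth muscle markers were measured, with a median difference of -0.031, and their part in the results was not tested. In whole-culture RNA, fewer cells of a type and less RNA per cell cannot be told apart.

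Of the 10 members, 7 were higher and 3 lower in the Ad-caERα array, beside 50.2% of all measured genes above 0. Per1 and Clock lay so near 0 that their signs changed under some normalizations. Ciart and Nfil3 were higher by at least 1.5-fold, which is 2 of 10 members beside 1.82% of all measured genes. No member was lower by 1.5-fold (0 of 10, beside 0.885% of measured genes), and 0 reached 2-fold in either direction, beside 0.59% of measured genes higher and 0.0959% lower. At a lower threshold, a log2 difference of 0.32, Per2 and Dbp joined, giving 4 members higher, beside 7.34% of measured genes, and 0 lower, beside 6.76%. The median difference of the members was 0.13 and the mean 0.25. The other 6 members lay between -0.25 and 0.18. The count of 2 rests partly on which of 2 probe sets stands for Ciart, and it is 1 with the other probe set or with their average.

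**Figure D2:**
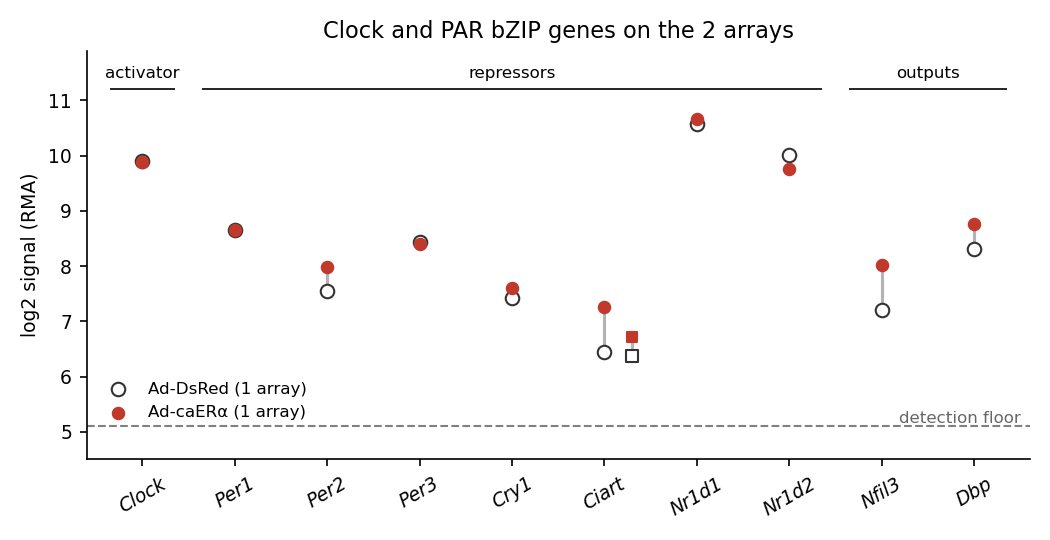
Log2 signals of the 10 members on the Ad-DsRed array (open) and the Ad-caERα array (red), 1 array each, grouped by role. Squares show the second Ciart probe set, numbered among chromosome 3 genes, and the dashed line is the detection floor. Ciart, Nfil3, Dbp and Per2 show the widest upward gaps, and all values lie above the floor.

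Clock, which encodes the activator that pairs with BMAL1, was at 9.91 with Ad-DsRed and 9.89 with Ad-caERα, a difference of -0.020. Of the measured genes, 92.0% lay at least as far from 0, so the activator was at nearly the same level on the arrays. Its partner Arntl, no member, was at 7.79 with Ad-DsRed and 8.35 with Ad-caERα, a difference of 0.56, or 1.48-fold, just under the 1.5-fold rule. It was the only one of the 5 measured activators past a log2 difference of 0.32. The paralog Arntl2 was at 6.57 and 6.40, a difference of -0.17. Rora and Rorb, the ROR activators of the second loop, had differences of -0.14 and 0.023. The activator list had a median difference of -0.020, with 2 of 5 genes above 0 against 50.2% of all measured genes. Npas2 was not analysed here.

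Among the Per genes, whose proteins form the repressor complex with the cryptochromes, only Per2 had a log2 difference past 0.32. Per2 was at 7.55 with Ad-DsRed and 7.99 with Ad-caERα, which is 1.36-fold higher, and 3.48% of measured genes were at least as high in difference. Per1 was at 8.65 on each array, with a difference of 0.0019. Per3 was at 8.44 with Ad-DsRed and 8.40 with Ad-caERα, a difference of -0.043. Of the 3 paralogs, Per2 was thus past that threshold, while Per1 and Per3 lay close to 0, beside an SD of 0.27 over all measured genes. The spread of such differences between cultures is unknown with 1 array per vector. Cry1, the partner of the PER proteins, was at 7.42 and 7.60, a difference of 0.18, or 1.13-fold, which 20.7% of measured genes reached or passed. Its paralog Cry2 was at 7.68 and 7.75, a difference of 0.073. Of the members with an E-box in the promoter windows, Per1 was near 0, Cry1 at 0.18 and Ciart at 0.82 or 0.33 by probe set. Dbp, at 0.45, had a window without a match to any motif searched. Whether the E-boxes bear on these values was not tested. The Per2 promoter was not searched.

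Ciart (also called Chrono), a repressor of CLOCK and BMAL1, has 2 probe sets that differ in size of response. The brighter probe set, used by the rule for genes with several probe sets, was at 6.44 with Ad-DsRed and 7.27 with Ad-caERα, a difference of 0.82, or 1.77-fold higher, at rank 118 of 13554 from the highest. The other was at 6.38 and 6.71, a difference of 0.33, or 1.26-fold higher. Both were higher in Ad-caERα, with a gap of 0.49 between them. The SD of 0.13 describes single probe sets around their gene's mean, so it is not the spread of gaps between 2 probe sets. Probe set numbers on this array mostly follow chromosomes. The 2 nearest named genes on each side of the brighter probe set, Esyt1, Zc3h10, Pa2g4 and Erbb3, are all on chromosome 10, whereas RefSeq places Ciart on chromosome 3. The neighbours of the other probe set, Prpf3, Mrps21, BC028528 and Car14, are on chromosome 3 with Ciart. Of the members' 9 probe sets whose 4 neighbours share a chromosome, the brighter Ciart probe set was the 1 numbered among genes of another chromosome. Across the array this held for 2.62% of 19263 probe sets. Among 292 measured genes with both kinds of probe set, the median gap in difference was 0.046, and 4 genes, Ciart included, had a gap at least as large as that of Ciart. The others were Cycs, Higd1a and Tmem229b, whose dimmer probe sets had mean log2 signals of 5.21, 6.67 and 5.29. The Ciart probe sets were dim too, at 6.55 and 6.86, and the gap was not compared among genes of like signal. What each Ciart probe set hybridises to was not tested.

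**Figure D3:**
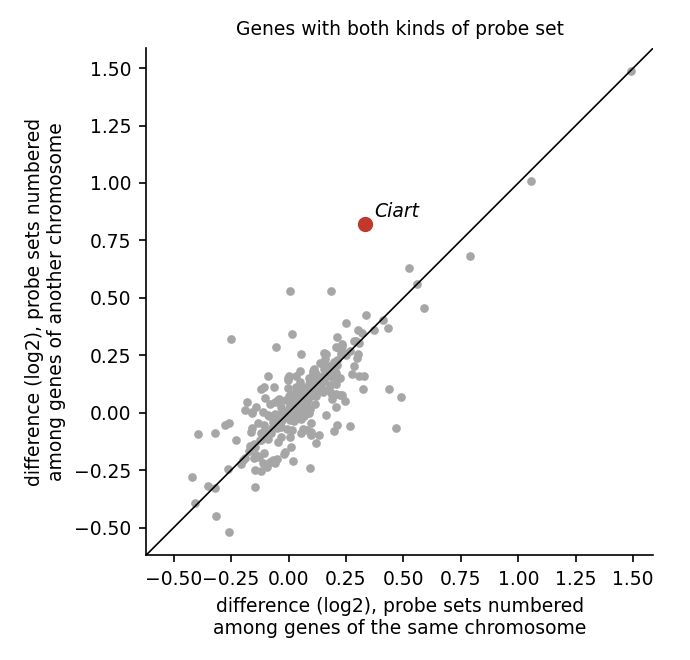
Differences (log2, Ad-caERα minus Ad-DsRed) of 292 measured genes that have a probe set numbered among genes of their own chromosome (horizontal) and one numbered among genes of another chromosome (vertical), with the line of equality. Most genes lie near the line, and Ciart, in red, lies above it at 0.33 and 0.82.

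Of the REV-ERB genes, Nr1d1 was close to level and Nr1d2 was lower. Nr1d1, which encodes REV-ERBα, was at 10.58 with Ad-DsRed and 10.66 with Ad-caERα, a difference of 0.076, or 1.05-fold. Of the measured genes, 70.4% lay at least as far from 0. Nr1d2, which encodes REV-ERBβ, was at 10.005 and 9.76, a difference of -0.25, or 1.19-fold lower. It was the lowest of the members, yet 11.7% of measured genes were as low or lower. Arntl and Nfil3, both known targets of REV-ERB repression, were 1.48-fold and 1.75-fold higher in the Ad-caERα array. Whether these values are linked to those of Nr1d1 or Nr1d2 was not tested. Bhlhe40 and Bhlhe41 (DEC1 and DEC2), E-box repressors outside the members, also differed from each other. Bhlhe40 was at 9.14 and 9.62, a difference of 0.47, or 1.39-fold higher, and Bhlhe41 at 9.19 and 9.16, a difference of -0.033. Over all 10 repressors of the loop, members included, the median difference was 0.074, with 7 above 0 beside 50.2% of all measured genes. Past 1.5-fold 1 was higher (Ciart, by its brighter probe set only) and 0 were lower, beside 1.82% and 0.885% of measured genes.

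Nfil3, the D-box repressor, had the largest difference among the 9 members read by a single probe set. It was at 7.20 with Ad-DsRed and 8.01 with Ad-caERα, a difference of 0.81, or 1.75-fold higher, at rank 123 of 13554 from the highest. Only 0.907% of measured genes were at least as high in difference. Dbp, the PAR bZIP activator that binds the same D-box sequences, was at 8.32 and 8.77, a difference of 0.45, or 1.37-fold higher, at rank 444. The activator and the repressor of D-box genes were thus both higher in the Ad-caERα array, the repressor by more. The remaining PAR bZIP genes were closer to 0 and split in direction. Tef was at 8.52 and 8.74, a difference of 0.22, or 1.16-fold higher, and Hlf was at 5.82 and 5.65, near the floor, a difference of -0.17. Per3, whose promoter shown above holds 2 D-boxes, differed by -0.043, and a link to Nfil3 or Dbp was not tested.

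**Figure D4:**
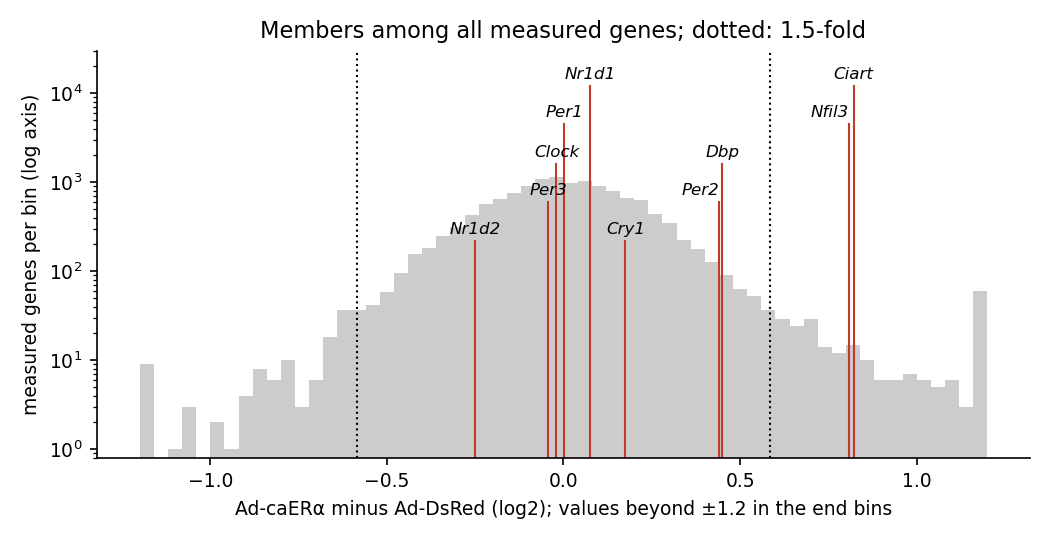
Differences (log2, Ad-caERα minus Ad-DsRed) of all 13554 measured genes as a histogram with a logarithmic count axis, with the 10 members as red lines whose heights only separate the labels. Dotted lines mark 1.5-fold. Ciart and Nfil3 lie beyond the upper line, Per2 and Dbp below it, and the other 6 within the bulk.

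Outside the members, 54 of 61 further clock pathway genes were measured, and 0 were apart by 1.5-fold in either direction, a count read beside 1.82% of all measured genes higher and 0.885% lower. Of these 54, 18 were above 0 and 35 below, beside 50.2% of all measured genes above 0, a share that applies to the lists below too. The median difference of the 54 was -0.069 beside 0.0017 over all measured genes. Enzymes that modify clock proteins were close to level, with 16 of 18 measured, 4 above 0 and 11 below, a median of -0.069 and a range from -0.30 to 0.078. The lowest were Prkaa2 (-0.30), an AMPK catalytic subunit, and Huwe1 (-0.25), a ubiquitin ligase. The highest were Ppp5c (0.078), a phosphatase, and Btrc (0.047), a ubiquitin ligase subunit that acts on PER proteins. Cofactors of clock complexes had 3 of 18 measured genes above 0 and 15 below, with a median of -0.13. Sfpq (-0.27), a PER complex protein, and Ep300 (-0.24), an acetyltransferase that works with CLOCK and BMAL1, were the lowest. The histone deacetylase genes Hdac1 (0.30) and Hdac3 (0.098) were the highest.

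Genes known as clock outputs in peripheral tissues had a median difference of -0.015 over 12 measured genes, 6 above 0 and 6 below. Pdk4, a kinase that restrains pyruvate oxidation, was at 8.64 with Ad-DsRed and 9.09 with Ad-caERα, 1.36-fold higher, and Tspan4, a tetraspanin gene, was at 10.58 and 11.01, 1.34-fold higher. The lowest were Ucp3, a mitochondrial carrier whose Ad-caERα signal was under the floor, so that it was lower by at least 1.08-fold, and Wee1, a cell cycle kinase, at -0.11. Myod1 was level on the arrays, at 10.84 and 10.85. Per1 is also known to respond to glucocorticoids and to cAMP signalling, so other genes with such responses were listed. In the glucocorticoid-responsive list, Tsc22d3 was at 8.40 and 8.78 (0.38), while Fkbp5 (-0.019), Sgk1 (0.0049) and Per1 itself were level, and Zbtb16 (-0.26) and Klf9 (-0.24) were the lowest, with a median of -0.019 over 7 genes. In the cAMP and CREB list, Nr4a1, an orphan nuclear receptor gene, was at 8.07 and 9.02, 1.93-fold higher, and was the only 1 of 7 past 1.5-fold, beside 1.82% of measured genes higher by that much. Crem followed at 0.20, Fos (-0.32) and Sik1 (-0.26) were the lowest, and the median was -0.083.

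**Figure D5:**
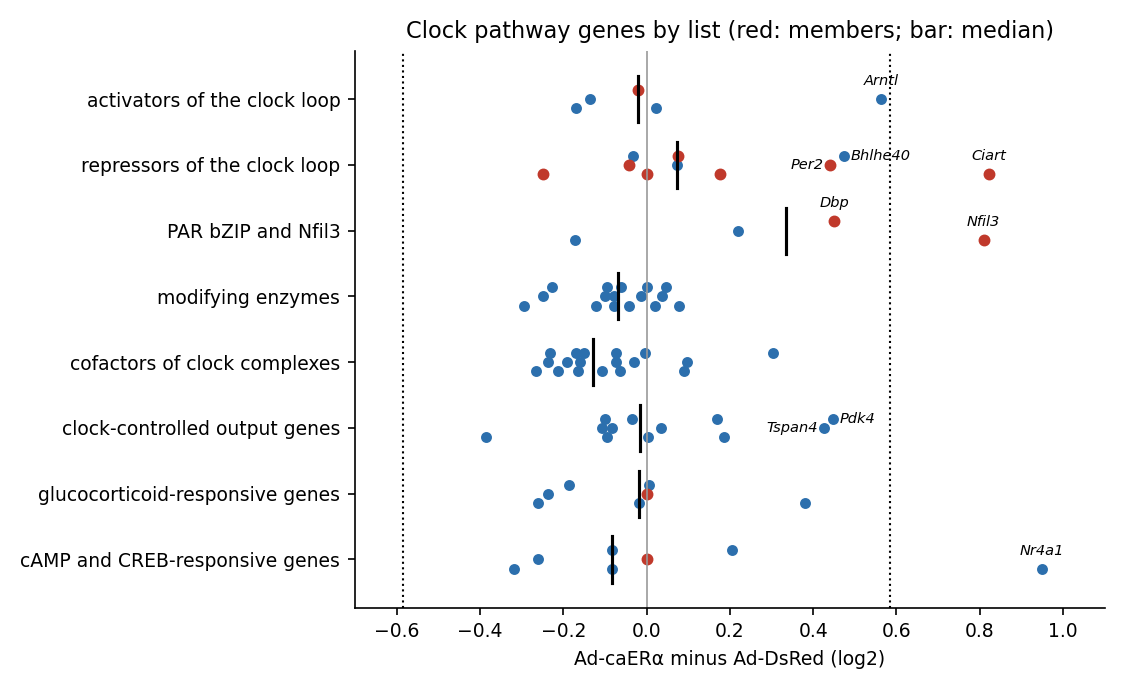
Differences (log2, Ad-caERα minus Ad-DsRed) of the measured genes of 8 clock pathway lists, 1 point per gene, with members in red, other genes in blue, list medians as black bars and dotted lines at 1.5-fold. Points of the modifying enzymes and cofactors lie mostly just below 0, and Ciart, Nfil3 and Nr4a1 lie beyond 1.5-fold.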

How the data were processed

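The deposited table holds a log2 signal for each probe set and array. The authors made these values with Affymetrix Expression Console and RMA, per the submitters' processing notes, with versions not given in the sources used here. The method subtracts background, equalises the arrays' distributions and compresses differences of weak signals, and hides any change in total mRNA. Medians over all probe sets were 6.05 (Ad-DsRed) and 6.02 (Ad-caERα). The precision of single values is unknown.

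Genes came from the platform's annotation: 21789 of 35556 probe sets name 1 gene, 1621 name several and were left unnamed, and 12146 are unnamed here. Identifiers of 21698 matched the RefSeq table (GRCm38.p6), which changed 0 symbols. For 999 genes with several probe sets the brightest was used. Genes above the floor on at least 1 array were called measured, with receptor genes left out. With 1 array per group, genes were counted by fold (1.5 and 2, and a smaller fold equal to a log2 difference of 0.32), with no p-value. The members and all gene lists were chosen with earlier results of these data known. Named genes were the members, their direct partners, genes past 1.5-fold and the 2 highest and 2 lowest of each pathway list, with a few more chosen after their values were seen. Alternatives covered the floor, normalization, probe set rule, naming and threshold. The code was tested on simulated data. Python 3.11.15, numpy 2.4.6, pandas 2.3.3, statsmodels 0.14.6 and matplotlib 3.10.9 were used.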

Additional observations from a re-analysis of the deposited data

How the results depend on the processing

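No paired analysis was possible because each vector has a single array. Leaving out a replicate was likewise impossible, and the spread between cultures is unknown. The count of 2 members higher by 1.5-fold became 1 when probe sets of a gene were averaged, with Ciart at 0.58, and 1 with Ciart read through its other probe set, at 0.33, an alternative chosen after seeing the data. It was 4 at a log2 threshold of 0.32 and 0 at 2-fold. The counts of members lower by 1.5-fold and past 2-fold stayed at 0 in every alternative run. The members' median difference ran from 0.099 to 0.15 over 9 alternatives, and the mean in its place was 0.25. Of 90 recalculated member differences, 88 moved by less than the SD of 0.13 between probe sets of a gene, and the 2 that moved more were those of Ciart. Outside Ciart the largest shift was 0.042. The sign of Per1 changed, to -0.033 with a trend over signal level removed and to -0.023 with quantile normalization repeated. That of Clock changed to 0.0091 with arrays centred on their medians. The floors could not change the members' values, since all lie above them. Admitting probe sets shared with other genes changed no member's value either. The brightest probe set still stood for each gene there, so a dimmer shared probe set would not show.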

Other observations

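Probe sets numbered among genes of another chromosome are not particular to Ciart. Of 19263 single-gene probe sets whose 4 nearest named neighbours share a chromosome, 505 carry a gene that RefSeq places elsewhere, and 230 measured genes are represented by such a probe set. Of the 93 genes at least 2-fold apart, 2 are among them: Socs2, a feedback inhibitor of cytokine and growth hormone signalling, at 10.26 with Ad-DsRed and 11.27 with Ad-caERα, and Eola1, at 7.15 and 8.16. Both were chosen after their values were seen. Socs2 also has a reading numbered among genes of its own chromosome. That reading differed by 1.05, beside 1.007 for the other kind, so the gap seen for Ciart was not seen for Socs2.

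Across the array, 1211 measured genes with a CACGTG E-box in a promoter window had a median difference of 0.028, against 0.0032 in 9517 measured genes with a window and no E-box. For the cAMP response element the medians were 0.047 in 370 genes and 0.0045 in 10358. For the AGGTCA half-site they were 0 in 1624 genes and 0.0084 in 9104. For the D-box TTATGTAA they were -0.032 in 69 genes and 0.0074 in 10659. The TTACGTAA form went the other way, at 0.059 in 21 genes and 0.0067 in 10707. For the CACGTT element the medians were 0.012 in 668 genes and 0.0061 in 10060. For the estrogen response element they were -0.013 in only 3 genes and 0.0068 in 10725. These medians are given as a description and were not tested.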
